A study of Mus musculus with 2 samples.

Results

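The G11 cells are 136 of 4991 single cells from tumours (2.73%) in the P24-30 Drop-seq file, those whose column name carries the tag G11. The series holds 10991 cells or barcodes in all. Both of its libraries came from medulloblastomas of hGFAPcre;Ptchc/c mice, in which Cre, driven by a human GFAP promoter, deletes Ptch, whose product holds the Sonic hedgehog (SHH) pathway in check. One library was made from tumours of postnatal days 24 to 30 (P24-30, 4991 cells) and the other at postnatal day 12 (P12, 6000 barcodes), with 1 library per age. There is no group without the deletion, and the sources used here do not give the number of animals in either library. In Drop-seq, each droplet pairs a cell with a barcoded bead, and unique molecular identifiers (UMIs) mark the single RNA molecules. The P24-30 columns carry 16 tags, G1 to G16, whose making no label explains. If the tags came from clustering these UMIs, every gene was used to form them, so all differences between tags are given as descriptions of 1 library, with no test. A cell needed 500 or more UMIs, no more than 20% of them mitochondrial, to be used below.

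Cerebellar granule neurons arise from progenitors that divide under SHH, leave the cell cycle and then switch on tubulins, adhesion molecules and transcription factors of young neurons while they migrate. Medulloblastomas that lack Ptch grow from this lineage and hold both dividing and differentiating cells. Core histones such as H2A are made from many near-identical gene copies, most of them active while DNA is replicated.

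The filter kept 124 G11 cells and removed 12, all with under 500 UMIs. The kept cells held 191808 UMIs, with a median of 1419 per cell (range 521 to 3543). Median depth was 1497 UMIs in the 208 kept G12 cells, 1700 in the 505 kept G13 cells and 2224 in the 4672 kept cells of all other tags together. Mitochondrial genes held 3.96% of UMIs in G11, against 3.65% in G12, 4.54% in G13 and 3.19% in all other tags. The nuclear RNA Malat1 was present in 124 of 124 G11 cells, at 10875 counts per 1000000 UMIs (CPM), against 9057 CPM in G12, 9202 CPM in G13 and 6009 CPM in all other tags. All intervals below are exact 95% intervals for counting error only.

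The label neuron-like fitted the markers given for it, although G11 was not the tag with the highest sum. The markers Cntn2, an axonal adhesion molecule, Stmn2, a microtubule regulator of growth cones, and Tubb3, the neuronal beta-tubulin, summed to 4916 CPM in G11. This compared with 4924 CPM in G12, 4095 CPM in G13 and 1769 CPM in all other tags. G11 ranked 2 of 16 tags for this sum, after G12 and before G13, G14 (3526 CPM) and G4 (2883 CPM), with the lowest sum in G8 (129 CPM). The G11 and G12 levels did not differ beyond counting error (ratio 0.999, 0.920 to 1.08). Against G13 the ratio was 1.20 (1.12 to 1.29), but it became 1.02 when every cell weighed equally. Against all other tags it was 2.78 (2.60 to 2.97).

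**Figure D1:**
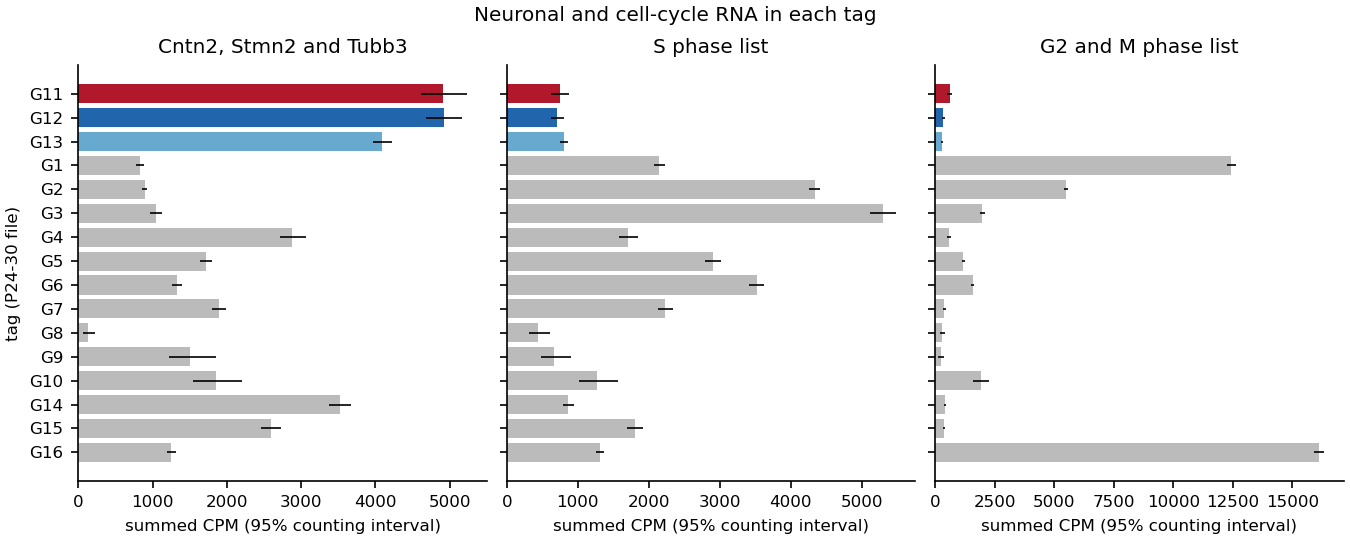
Summed CPM (horizontal axes) of the neuron-like markers and of the S phase and G2 and M phase lists in each of 16 tags, with G11, G12 and G13 on top and bars of 95% counting intervals. G11 has 4916 CPM of the markers beside 4924 CPM in G12. Its 605 CPM of the G2 and M phase list lies above 341 CPM in G12 and 294 CPM in G13. It lies beside 590 CPM in G4 and far below 16121 CPM in G16.

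Cntn2 (chr1:132509427-132543256, mm10, minus strand) had 688 CPM in G11 (576 to 816), 697 CPM in G12, 551 CPM in G13 and 178 CPM in all other tags. Stmn2 had 2737 CPM in G11 (2508 to 2982), 2645 CPM in G12, 2270 CPM in G13 and 1044 CPM in all other tags. Tubb3 had 1491 CPM in G11 (1323 to 1674), 1582 CPM in G12, 1274 CPM in G13 and 547 CPM in all other tags. Each marker was 2.62-fold (Stmn2) to 3.87-fold (Cntn2) higher than in all other tags, and each interval of the ratio over G12 held 1.

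Shares of cells were compared on a random draw of 500 UMIs from every cell, which left out 2 G12 cells and 7 cells of all other tags. A UMI of any of the 3 markers was found in 91 of 124 G11 cells (73.4%, 64.7 to 80.9). The shares were 76.2% in G12, 74.3% in G13 and 47.2% in all other tags. Among 51 cells with at least 3 microglia markers, which should lack these genes, 4 cells had one (7.84%). Over all possible draws the shares were 74.8% in G11 and 13.6% in the microglia-marked cells, so the G11 share lay above this background. On all UMIs, 111 of 124 G11 cells (89.5%) had a marker UMI, against 39.2% of the microglia-marked cells.

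Transcription factors of young neurons were mostly higher in G11 than in all other tags. Of 28 listed factors with at least 50 UMIs over both sides, 13 were at least 1.5-fold higher and 1 was at least 1.5-fold lower. Of the 13, 11 also had an interval above 1. Over all 11085 genes tested in this comparison, 26.4% were at least 1.5-fold higher and 18.9% at least 1.5-fold lower, and 10.3% and 5.52% when the interval also had to leave out 1. The median log2 ratio was 0.45 for the factors and 0.02 for all genes. Neurod1, a proneural factor of differentiating granule cells, had 2716 CPM in G11, against 3074 CPM in G12, 2264 CPM in G13 and 864 CPM in all other tags. Nhlh1 and Nhlh2, neuronal bHLH factors, were 2.73-fold (2.12 to 3.46) and 2.72-fold (2.32 to 3.18) higher than in all other tags. St18, Myt1 and Myt1l, zinc finger factors of neurons, were 2.71-fold, 2.51-fold and 2.57-fold higher. The highest member, the neuronal bHLH factor Neurod2 at 4.79-fold, and the lowest, the MADS-box factor Mef2d at 0.353, rest on 9 UMIs and 1 UMI in G11. NFI factors, which act in granule neuron maturation, were closer to the rest, with ratios of 1.27 for Nfia, 1.37 for Nfib and 1.32 for Nfix.

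The neuronal cytoskeleton was higher as a group, on a list that includes the markers Stmn2 and Tubb3 and so is not independent of them. Of 24 genes tested, 14 were at least 1.5-fold higher than in all other tags, each with an interval above 1, and 1 was lower, with a median log2 ratio of 1.03. The growth cone protein Gap43 had 1397 CPM in G11 and 606 CPM in all other tags. The microtubule proteins Dcx and Map2 had 313 CPM and 542 CPM in G11, against 112 CPM and 222 CPM in all other tags. The intermediate filament protein Ina had 636 CPM in G11, 426 CPM in G12, 414 CPM in G13 and 227 CPM in all other tags, the highest ratio over G12 on this list (1.49, 1.16 to 1.92). Stmn1, a stathmin that dividing cells also use, was near 1 (0.974, 0.859 to 1.10). The highest member over all other tags was Dpysl3, a collapsin response mediator, at 172 CPM in G11 and 44.8 CPM in all other tags (3.84, 2.62 to 5.47), with 33.3% of its 33 G11 UMIs in 1 cell. The gene that was lower was Dclk1, a doublecortin-like kinase, on 12 UMIs in 8 G11 cells (ratio 0.491, 0.253 to 0.861).

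Adhesion and guidance genes gave G11 the highest summed level of the 16 tags, 3039 CPM (2798 to 3297), with G12 next at 2952 CPM, inside the G11 interval. The marker Cntn2 is on this list and gave 688 CPM of the G11 sum. Of 23 genes tested, 14 were at least 1.5-fold higher than in all other tags, 12 with an interval above 1, and 2 were lower. Sema6a, a semaphorin of granule cell migration, had 261 CPM in G11, against 189 CPM in G12, 136 CPM in G13 and 65.0 CPM in all other tags. L1cam, an axonal adhesion molecule, had the highest ratio, 5.83 (2.59 to 11.5), on 9 UMIs in 9 cells. The lowest was the chemokine receptor Cxcr4, on 2 UMIs (0.516, 0.0622 to 1.88).

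RNA-binding proteins of neurons had 8 of 14 tested genes at least 1.5-fold higher than in all other tags, each with an interval above 1, and 1 lower. Elavl3 and Rbfox3, splicing regulators of neurons, were 1.92-fold and 1.90-fold higher. The CELF family proteins Celf3 and Celf5 led by ratio, at 3.44-fold (1.69 to 6.29) and 3.20-fold (2.16 to 4.60). The lower one was Ptbp1, the splicing repressor of non-neuronal cells, on 3 UMIs (ratio 0.480, 0.0985 to 1.41). Synaptic genes had 9 of 19 higher, 7 with an interval above 1, and 3 lower. Snap25, a vesicle fusion protein, had 214 CPM in G11 and 129 CPM in all other tags, while the vesicle protein Cplx2 was lower, at 177 CPM in G11 and 293 CPM in all other tags. The highest ratio was that of the calcium sensor Syt1 (5.46, 2.55 to 10.4, on 10 UMIs in 7 cells). Receptors and channels of granule neurons had 8 of 14 higher, 6 with an interval above 1, and 3 lower. The AMPA receptor subunit Gria2 led them by level, with 1048 CPM in G11 and 550 CPM in all other tags, while Gria1, another subunit, had 1 UMI in G11 (0.326, 0.0082 to 1.84). Gabra6, a GABA receptor subunit of mature granule cells, and Slc17a7, the vesicular glutamate transporter of the mature stage, had no UMI in the 124 cells, and had 0.335 CPM and 0.587 CPM in all other tags, too few for a comparison.

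**Figure D2:**
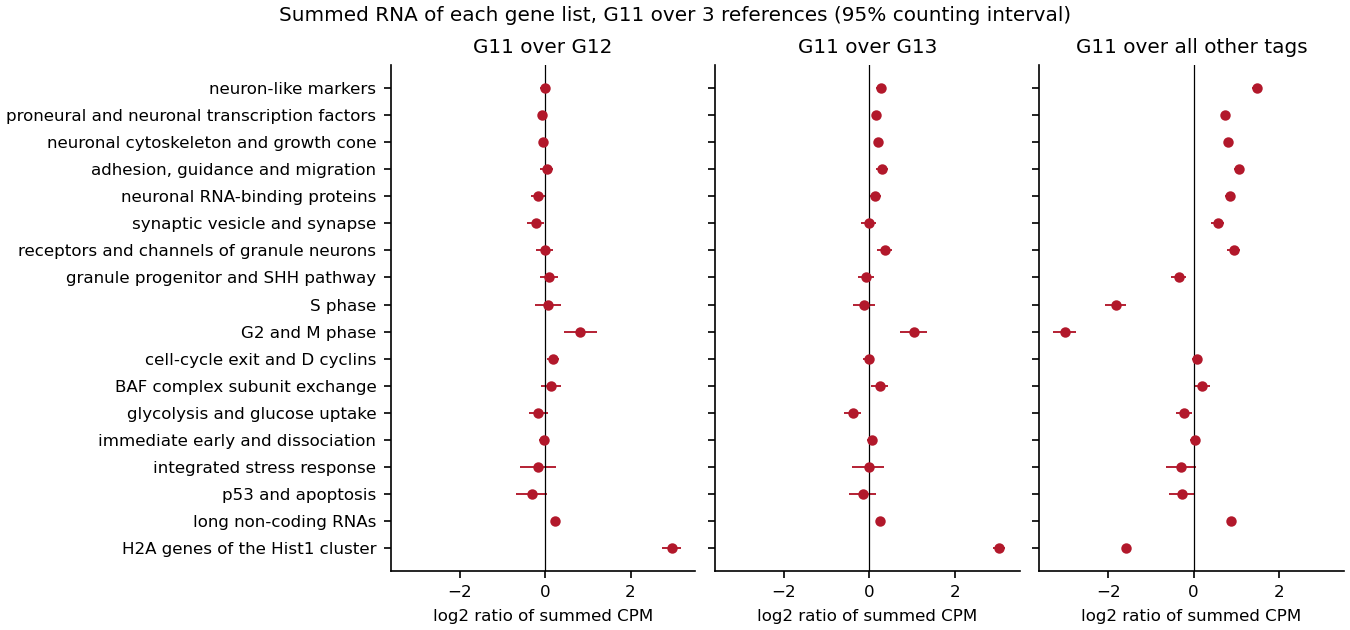
Log2 ratio of summed CPM (horizontal axes) for each gene list, G11 over G12, over G13 and over all other tags, with 95% counting intervals. Over G12 and G13 most lists lie near 0, the H2A genes lie near 3 and the G2 and M phase list lies near 1, while over all other tags the neuronal lists are above 0 and both cycle lists below it.

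The SHH pathway and progenitor list summed to 1460 CPM in G11 and 1856 CPM in all other tags (0.786, 0.696 to 0.885). Of 13 genes tested, none was at least 1.5-fold higher than in all other tags and 3 were lower, 2 of them with an interval below 1, a share of lower genes near the 18.9% of all genes. Gli1, the transcription factor that SHH signalling turns on, had 36.5 CPM in G11 (7 UMIs in 6 cells), 24.4 CPM in G12, 37.2 CPM in G13 and 97.6 CPM in all other tags. Gas1, an SHH co-receptor, had 10.4 CPM in G11 and 44.6 CPM in all other tags. Atoh1, the progenitor factor of the granule lineage, had 57.3 CPM in G11 and 81.5 CPM in all other tags, with an interval that held 1. Sfrp1, a Wnt modulator, made up most of the list's UMIs, with 1074 CPM in G11 and 1281 CPM in all other tags. Ptch1 (3 UMIs) had the highest ratio, 1.29, with an interval of 0.262 to 3.84. Of 9 Notch genes tested, the fringe glycosyltransferase Mfng was higher (1.78) and the Notch effector Rbpj lower (0.478), on 5 UMIs each and with intervals that held 1.

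Most cell-cycle genes were lower than in all other tags. Of 25 S phase genes, 23 were at least 1.5-fold lower, 20 of them with an interval below 1, and none was higher, with a sum of 746 CPM in G11 and 2642 CPM in all other tags (ratio 0.282, 0.238 to 0.333). The replication clamp Pcna had 93.8 CPM in G11 and 417 CPM in all other tags. Of 25 G2 and M phase genes, 25 were lower, 24 of them with an interval below 1, with a sum of 605 CPM in G11 and 4883 CPM in all other tags (ratio 0.124, 0.102 to 0.149). The mitotic kinase Cdk1 had 1 UMI in G11, and the mitotic cyclin Ccnb1 had none, which is at least 7.02-fold lower than the 110 CPM of all other tags when 3 UMIs are taken as the limit of a count of 0.

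The G2 and M phase list stood higher in G11 than in G12 and G13, but not than in G4. It summed to 605 CPM in G11 (500 to 725), 341 CPM in G12 and 294 CPM in G13, ratios of 1.77 (1.36 to 2.32) and 2.06 (1.65 to 2.56). The sum was 590 CPM in G4 (514.5 to 673.6), a tag as like G11 as G13 by rank correlation (0.793 for both). It was 408 CPM in G14 (360 to 461). Mki67, the proliferation antigen, had 115 CPM in G11, 36.5 CPM in G12 and 42.2 CPM in G13, and Top2a, the replication and mitosis topoisomerase, had 99.1, 51.7 and 33.2 CPM in the same order. These were 22 and 19 UMIs in 12 and 11 G11 cells. A UMI of the list was found in 55 of 124 G11 cells (44.4%), against 35.1% of G12 and 31.9% of G13 cells. The 5 G11 cells with the most held 31 of the 116 UMIs, and without the 5 highest cells of each tag the sums were 443 CPM in G11, 283 CPM in G12 and 255 CPM in G13. The S phase list did not share this difference, with 746 CPM in G11, 709 CPM in G12 and 808 CPM in G13.

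The share of cells with cycle RNA was not above that of microglia-marked cells. A cell was counted as cycling with at least 2 UMIs of both cycle lists together in its 500 drawn UMIs, which held for 20 of 124 G11 cells (16.1%, 10.1 to 23.8). The shares were 11.2% in G12, 13.9% in G13 and 57.8% in all other tags, and 17.6% (8.40 to 30.9) among microglia-marked cells. The microglia-marked cells carry cycle RNA themselves. On all UMIs 19.6% of them had Mki67 and 21.6% Top2a, against 9.68% and 8.87% of G11 cells. They are therefore not taken as a background for cycle RNA, and whether G11 cells cycle cannot be told from this share. On the draw of 500 UMIs 82 G11 cells had a marker UMI and were not cycling, 9 were both, 11 were cycling without a marker and 22 were neither. On all UMIs 47.6% of G11 cells passed the same limit, against 60.8% of microglia-marked cells.

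Genes of cell-cycle exit were mixed. Of 17 tested, 3 were at least 1.5-fold higher than in all other tags and 5 lower, 2 in each direction with an interval that left out 1. Over all genes 26.4% were higher and 18.9% lower, and 10.3% and 5.52% with the interval. The atypical cyclin Ccng2 had 167 CPM in G11, 116 CPM in G12, 78.4 CPM in G13 and 96.9 CPM in all other tags. The antiproliferative gene Btg1 had 172 CPM in G11, 198 CPM in G12, 171 CPM in G13 and 112 CPM in all other tags. The CDK inhibitor Cdkn1b, which acts in granule cells leaving the cycle, was 1.44-fold higher (1.11 to 1.82), while the p53 target Cdkn1a had 1 UMI in G11 (0.134). Rb1 had the highest ratio, 1.77, on 5 UMIs.

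Subunits that the BAF chromatin remodelling complex exchanges during neuronal differentiation had 3 of 11 higher, 1 with an interval above 1, and 1 lower. The shares of higher subunits are near those of all genes, 26.4%, and 10.3% with an interval above 1, so no shift of the group is read. The subunit with an interval above 1 was Smarcc2, at 282 CPM in G11 and 156 CPM in all other tags (1.80, 1.35 to 2.36). The neuronal subunit Actl6b had 41.7 CPM in G11 on 8 UMIs and 21.5 CPM in all other tags, and the progenitor subunit Phf10 had 26.1 CPM on 5 UMIs and 49.9 CPM, both with intervals that held 1. Long non-coding RNAs had 3 of 5 higher, each with an interval above 1, and 1 lower. Miat had 766 CPM in G11, 746 CPM in G12, 526 CPM in G13 and 322 CPM in all other tags. Meg3, an imprinted RNA, had 52.1 CPM in G11 on 10 UMIs in 6 cells, against 143 CPM in G12, 45.2 CPM in G13 and 13.7 CPM in all other tags.

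Glycolysis genes were mixed gene by gene but lower as a sum, and stress genes were near or mixed around the level of the rest. Of 18 glycolysis genes, 5 were higher, 2 of them with an interval above 1, and 4 lower, each with an interval below 1. Over all genes 26.4% were higher and 18.9% lower, and 10.3% and 5.52% with the interval. The summed glycolysis ratio was 0.859 over all other tags (0.753 to 0.976) and 0.77 over G13 (0.667 to 0.880). Over G12 it was 0.898, with an interval that held 1 (0.765 to 1.05). Pkm, pyruvate kinase, and Gapdh had 141 CPM and 146 CPM in G11, against 255 CPM and 229 CPM in all other tags. The neuronal glucose transporter Slc2a3 led by ratio (2.70), with 72.7% of its 11 G11 UMIs in 1 cell, and hexokinase Hk2 was lowest (0.257, on 3 UMIs). Immediate early and dissociation genes, which cell preparation can switch on, had 2 of 8 higher and none lower, and their sum was 4369 CPM in G11 and 4296 CPM in all other tags. The integrated stress response had 2 of 7 higher and 2 lower, and p53 and apoptosis genes 2 of 10 higher and 2 lower, with no interval above 1 in either list. These counts of stress genes rest on few genes and lie near the shares of all genes, so no shift is read from them.

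The genes furthest from 1 over all other tags were ranked by one rule. By the interval bound nearest to 1, with no cell holding over 20% of the UMIs of the higher side, the 12 highest were Kcp, Galr1, Grin2b, Cyfip2, Cntn2, Sema6a, Mark2, Neurod1, Epb4.1l4a, Plcd1, Lmbr1l and B3galt2. Kcp, a secreted protein with chordin-like repeats that modulates BMP signalling, had 172 CPM in G11, against 48.7 CPM in G12, 47.3 CPM in G13 and 24.8 CPM in all other tags, on 33 UMIs in 17 cells. Galr1, a galanin receptor, had 78.2 CPM in G11, 30.4 CPM in G12, 36.2 CPM in G13 and 10.1 CPM in all other tags. The NMDA receptor subunit Grin2b (10 UMIs in 7 cells) had 52.1 CPM in G11 and 5.78 CPM in all other tags. Mark2, a microtubule affinity-regulating kinase, and Cyfip2, a subunit of the actin-regulating WAVE complex, were 5.08-fold (2.91 to 8.34) and 6.27-fold (3.25 to 11.1) higher. These rest on 17 and 13 UMIs in G11.

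The 12 lowest over all other tags were Cdca8, Hmgb2, Esco2, Ube2c, Fam111a, Prim1, Ccnb1, Nusap1, Nuf2, Cdk1, Kpna2 and Cks2. Hmgb2, a chromatin protein of dividing cells, had 203 CPM in G11 (39 UMIs), 192 CPM in G12, 130 CPM in G13 and 2463 CPM in all other tags. The DNA primase subunit Prim1 had 1 UMI in G11 (5.21 CPM), against 30.4 CPM in G12, 51.3 CPM in G13 and 170 CPM in all other tags. Ube2c, a ubiquitin-conjugating enzyme of mitotic exit, had 20.9 CPM in G11 and 361 CPM in all other tags. Cdca8, of the chromosomal passenger complex, Esco2, a cohesin acetyltransferase, Fam111a, Ccnb1, the kinetochore protein Nuf2 and the importin Kpna2 had no UMI in G11.

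**Figure D3:**
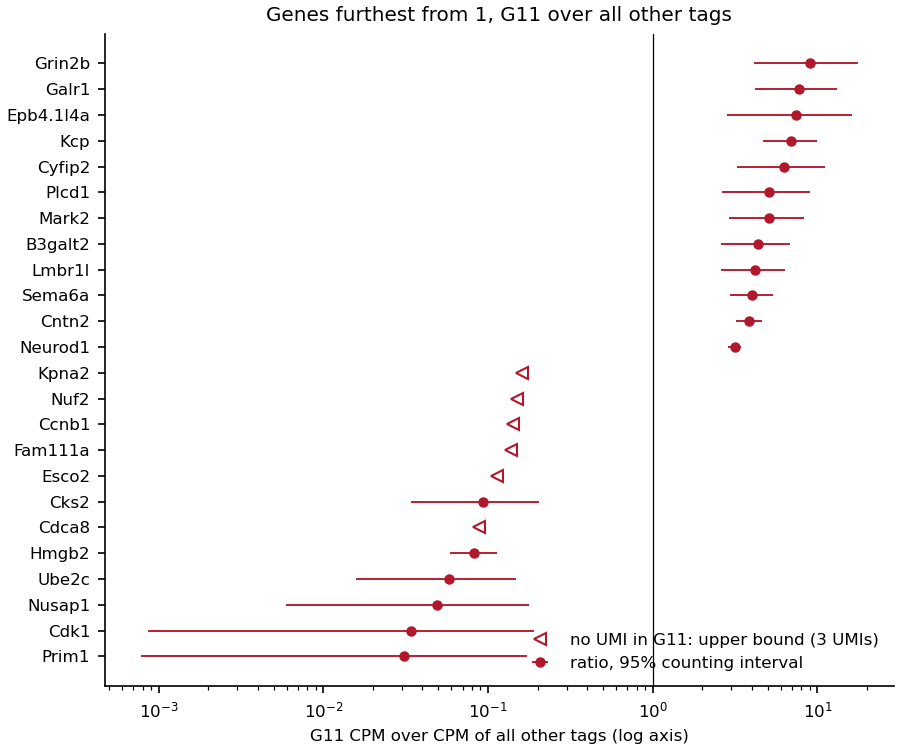
Ratio of CPM in G11 over all other tags (log axis) for the 12 highest and 12 lowest genes by the fixed rule, with 95% counting intervals, and arrowheads for the upper bound of genes with no UMI in G11. The highest genes lie between 3.15-fold (Neurod1) and 9.02-fold (Grin2b), and their widest intervals belong to genes with few UMIs.

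At the high end, the ranking over G12 and over G13 was led by H2A genes of the Hist1 cluster, which encode the replication-dependent core histone H2A. By the same rule, which leaves out genes with over 20% of UMIs in 1 cell, the 6 genes furthest above G12 were Hist1h2ai, Hist1h2ag, Hist1h2ac, Hist1h2ao, Hist1h2ap and Hist1h2af, at 7.06-fold to 17.1-fold, and these 6 names also led over G13, at 7.35-fold to 12.2-fold. Hist1h2ap had 902 CPM in G11 (173 UMIs in 115 cells), against 128 CPM in G12, 97.5 CPM in G13 and 2706 CPM in all other tags. Hist1h2ag had 620 CPM in G11 (119 UMIs in 98 cells), 51.7 CPM in G12, 53.3 CPM in G13 and 1508 CPM in all other tags. The 14 genes with names starting in Hist1h2a, called H2A genes here, were then summed, a list made after these values were seen. Hist1h2al, among them, is annotated as a processed pseudogene at chr13:51202727-51203065, outside the cluster. It had 7 UMIs in G11, 5 in G12 and 35 in G13, and stays in all H2A sums. Every one of the 9 genes tested against G12 and of the 12 tested against G13 was at least 1.5-fold higher in G11, each with an interval above 1. No H2A gene reached 50 UMIs in G12 alone (at most 42, Hist1h2ap). In G13 alone only Hist1h2ag, Hist1h2ao and Hist1h2ap did. The others were tested only because of their G11 UMIs, and the copies are near-identical. These counts of genes are therefore not support of their own. Over all 1902 genes tested against G12, 5.36% were at least 1.5-fold higher and 7.26% lower, and 3.73% and 3.79% when the interval also had to leave out 1. Over all 4102 genes tested against G13, 9.63% were higher and 13.3% lower, and 4.73% and 5.05% with the interval.

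The coding ends of these genes are shown because the copies can hardly be told apart by coding sequence. Below are the last 60 coding bases before the stop codon, 5′ to 3′, from GENCODE vM21 on mm10, with capitals where a base differs from Hist1h2ap.
Hist1h2ap: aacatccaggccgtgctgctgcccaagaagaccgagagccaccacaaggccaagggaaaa
Hist1h2ao: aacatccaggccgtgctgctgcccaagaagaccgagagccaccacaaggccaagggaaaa
Hist1h2ag: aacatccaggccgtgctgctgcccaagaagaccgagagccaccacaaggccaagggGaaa
Hist1h2ai: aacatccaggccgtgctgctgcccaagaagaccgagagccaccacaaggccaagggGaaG
Hist1h2an: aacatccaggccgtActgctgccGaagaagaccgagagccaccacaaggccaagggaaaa
Hist1h2af: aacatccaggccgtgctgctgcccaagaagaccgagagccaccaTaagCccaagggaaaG
Hist1h2ao (chr13:21810465-21810944, plus strand) and Hist1h2ap (chr13:21833026-21833507, minus strand) have identical coding sequences of 390 bases. Hist1h2ag (chr13:22042460-22042944, minus strand) differs from Hist1h2ap at 3 coding bases, and Hist1h2ai (chr13:21716422-21716814, plus strand) and Hist1h2an (chr13:21786826-21787218, minus strand) at 5 each. Hist1h2af (chr13:23533906-23534304, plus strand) differs at 6 coding bases. Over the 11 genes of that coding length, identity between pairs was 96.4% to 100%, with a median of 98.2%. Coding reads from 1 gene can therefore be assigned to another, and single H2A genes are uncertain here. The sources used here do not say how such reads were assigned.

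H2A RNA was spread over the whole tag. All of the 124 G11 cells had a UMI of at least 1 H2A gene (100%, 97.1 to 100), and so had all of the 136 before the filter. The shares were 65 of 208 G12 cells (31.3%, 25.0 to 38.0) and 193 of 505 G13 cells (38.2%, 34.0 to 42.6). A G11 cell held a median of 7 H2A UMIs (2 to 28) over a median of 6 of the 14 genes, and the median was 0 in G12 and G13. In the 500 drawn UMIs, 111 of 124 G11 cells kept one (89.5%, 82.7 to 94.3), against 35 of 206 G12 cells, 109 of 505 G13 cells (21.6%) and 58.1% of all other cells. Microglia-marked cells had one in 19 of 51 cells (37.3%, 24.1 to 51.9), a share below that of G11 and above those of G12 and G13, so it is not taken as a common background for H2A.

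**Figure D4:**
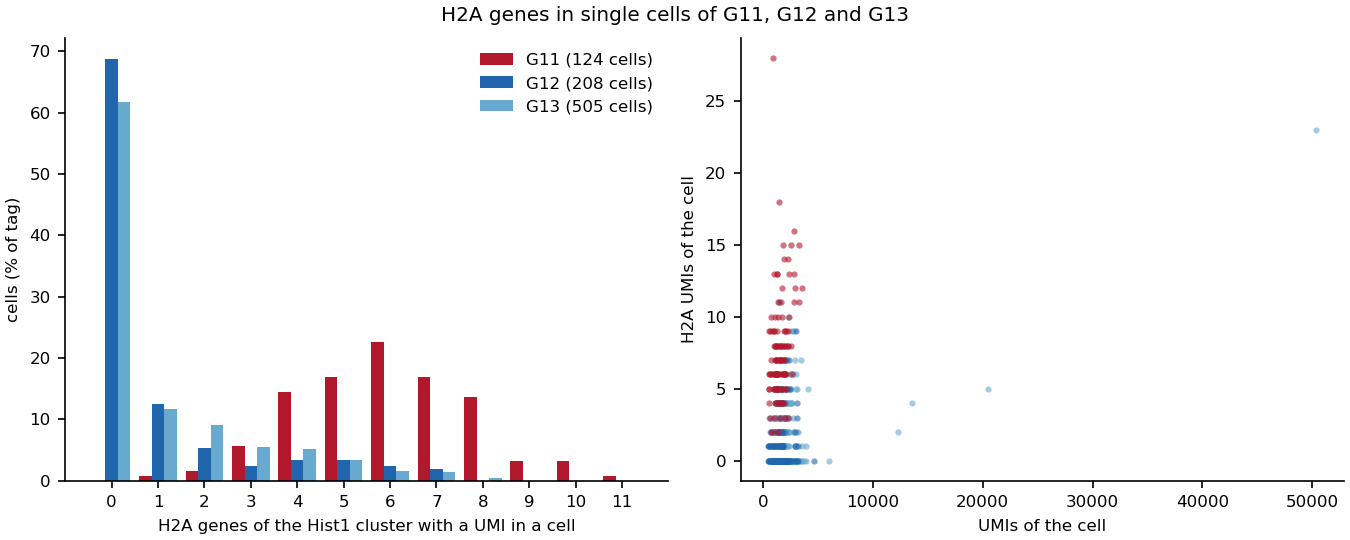
Left, percent of cells of each tag (vertical axis) by the number of H2A genes with a UMI in a cell (horizontal axis), for the kept cells of G11, G12 and G13. Right, H2A UMIs of each cell against all UMIs of the cell. Every G11 cell has at least 2 H2A UMIs, while most G12 and G13 cells have none at like depth, and the G13 cell with 50361 UMIs has 23.

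The summed level was 4854 CPM in G11 (4547 to 5176), 621 CPM in G12, 592 CPM in G13 and 14484 CPM in all other tags. The ratio was 7.82 over G12 (6.71 to 9.14) and 8.20 over G13 (7.39 to 9.10). In 62 of the 124 G11 cells no H2A gene had more than 1 UMI, although a median of 5.5 genes had one. Of 122 G11 cells with a UMI of Hist1h2ao or Hist1h2ap, 77 had equal counts of both. A sum over copies can thus count a molecule more than once. The intervals of H2A sums, here and below, take every UMI as a separate molecule, so they can be too narrow. When only the highest H2A gene of each cell was counted, G11 had 1110 CPM (966 to 1270), against 237 CPM in G12, 231 CPM in G13 and 2918 CPM in all other tags. On that scale the ratio was 4.68 over G12 and 4.80 over G13. The intervals of these CPM, 188 to 296 in G12 and 202 to 263 in G13, did not overlap that of G11. They treat the highest count of each cell as a plain count, so they are only a guide.

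Across tags G11 ranked 4 of 16 for summed H2A. The highest tags were G2 with 41576 CPM, G1 with 34452 CPM and G4 with 6041 CPM, and next after G11 came G3 with 4444 CPM, G16 with 3551 CPM and G5 with 3090 CPM. The lowest was G15 with 451 CPM. All kept cells of G1, G2, G3 and G4 also had an H2A UMI. Among these tags and G11, the neuron-like marker sum was 4916 CPM in G11, against 2883 CPM in G4, 1043 CPM in G3, 892 CPM in G2 and 828 CPM in G1. The ratio of summed H2A over all other tags was 0.335 (0.314 to 0.357), and 0.721 when each tag weighed equally.

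**Figure D5:**
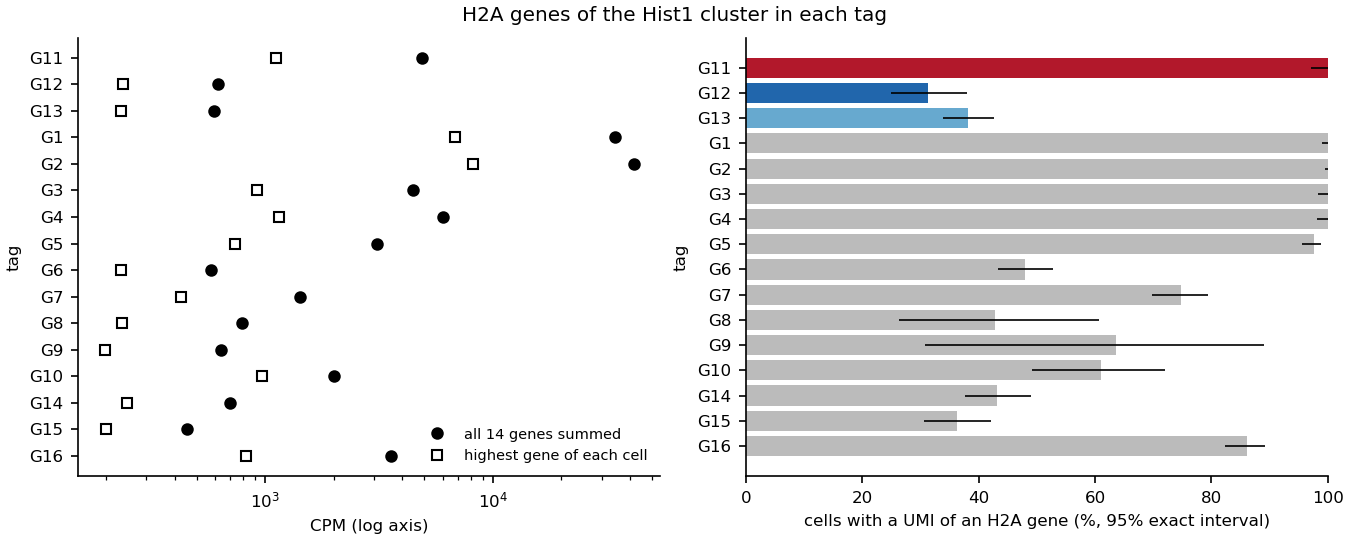
Left, CPM (log axis) of the 14 H2A genes summed and of the highest H2A gene of each cell, by tag. Right, percent of kept cells with a UMI of any H2A gene, with 95% exact intervals. G11 has 4854 CPM and 100% of cells, beside 621 CPM and 31.3% in G12 and 592 CPM and 38.2% in G13.

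Other histone families differed less or in other directions. H2B genes summed to 334 CPM in G11, 295 CPM in G12 and 403 CPM in G13. H3 genes summed to 31.3, 54.8 and 25.1 CPM in the same order, on only 6, 18 and 25 UMIs. H4 genes had 115 CPM in G11, 396 CPM in G12 and 86.5 CPM in G13, and 64 of the 95 Hist1h4i UMIs of G12 lay in 1 cell. H2A genes outside the Hist1 cluster had 339 CPM in G11 (262 to 432), 286 CPM in G12 and 208 CPM in G13 (181 to 239), so that G11 was higher than G13 beyond counting error. H2afz, which encodes the variant H2A.Z used outside replication, had 334 CPM in G11 (257 to 426), against 526 CPM in G12, 652 CPM in G13 and 1855 CPM in all other tags.

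H2A RNA in G11 was not limited to cells with other cycle RNA. Of the 124 cells, 40 had no UMI of either cycle list. Since every G11 cell had an H2A UMI, so had each of the 40, and only the medians compare these cells. The 40 cells had a median of 6 H2A UMIs. The 84 G11 cells with a cycle UMI had a median of 7. In G12 an H2A UMI was found in 28.3% of cells without and 32.3% of cells with a cycle UMI, and in G13 in 39.5% and 37.8%.

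The P12 columns carry no tags, so G11 has no counterpart there. Over the whole libraries, Cntn2 had 185 CPM at P24-30 and 78.5 CPM at P12, Stmn2 had 1068 CPM and 815 CPM, and Tubb3 had 558 CPM and 252 CPM, each from 1 library. Between the libraries H2A cannot be read. The 14 genes had 14187 CPM in the whole P24-30 library and 336 CPM at P12, with 32140 Hist1h2ao UMIs at P24-30 and 4 counts at P12. The labels do not say whether the P12 counts are UMIs. Counting of gene copies and age cannot be told apart here.

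Other genes were lower in G11 than in its neighbours. The 6 furthest below G12 were Ran, Slirp, Eif3j1, Zmym5, Eif3j2 and Atp5g1. The nuclear transport GTPase Ran had 209 CPM in G11, 450 CPM in G12, 250 CPM in G13 and 1003 CPM in all other tags. Atp5g1, a subunit of mitochondrial ATP synthase, had 93.8 CPM in G11, against 213 CPM in G12 and 233 CPM in G13. Eif3j1 and Eif3j2, near-identical copies of a translation initiation subunit, had 109 CPM and 141 CPM in G11, against 247 CPM and 292 CPM in G12. The 6 furthest below G13 were Anp32e, Rif1, Prdx5, Prim1, Rmst and Cers5. Anp32e, a chaperone that removes H2A.Z, had 136 CPM in G11, 137 CPM in G12, 407 CPM in G13 and 631 CPM in all other tags. Rif1, a regulator of replication timing, had 15.6 CPM in G11 on 3 UMIs, against 91.3 CPM in G12 and 93.5 CPM in G13.

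Differences of the neuronal lists from G12 and G13 were small and not all in one direction. Against G12, none of 17 transcription factors, 20 cytoskeleton genes and 7 adhesion genes tested passed 1.5-fold in either direction. Over all 1902 genes tested against G12 only 5.36% were higher and 7.26% lower. For lists this short the counts are therefore not read on their own. Summed ratios were 0.948 (0.905 to 0.992), 0.965 (0.927 to 1.00) and 1.03 (0.928 to 1.14). RNA-binding proteins were lower as a sum (0.892, 0.802 to 0.992), with Elavl4 at 313 CPM in G11 and 536 CPM in G12, and so were synaptic genes (0.861, 0.751 to 0.985). Against G13, summed ratios were 1.10 for transcription factors, 1.15 for the cytoskeleton and 1.23 for adhesion genes, each with an interval above 1. They were 1.09 for RNA-binding proteins (0.992 to 1.20) and 0.988 for synaptic genes (0.874 to 1.11), with intervals that held 1. Very deep G13 cells weigh in these sums, and the deepest, with 50361 UMIs, had only 0.171% of them in the cytoskeleton list. In draws of 500 UMIs the median cell held 8.5 cytoskeleton UMIs in G11 and 9 in G13. For transcription factors these medians were 6.5 and 7. A higher neuronal level per cell than in G13 is therefore not read from these sums. Ccnd1, a D cyclin, was 2.49-fold higher than in G12 (516 CPM in G11 and 207 CPM in G12), but 30 of its 99 UMIs lay in 1 G11 cell. Notch1 was lower than in G12, where 35 of its 55 UMIs lay in 1 cell. Across 10934 genes at equal UMIs the Spearman correlation with G11 was 0.819 for G12, 0.793 for G14, G4 and G13, and 0.703 for G1 and G2, where shared depth and library are part of every value and G8, G9 and G10 were too shallow.

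G11 cells varied widely around these levels. Of 500 UMIs, the neuronal cytoskeleton list held a median of 8.5 in G11, with a 10th percentile of 2 and a 90th percentile of 16.7. The medians were 9 in G12, 9 in G13 and 5 in all other tags. The S phase and the G2 and M phase lists each had a median of 0 and a 90th percentile of 1 in G11.

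Single cells weigh heavily on single genes. Of the 30 genes ranked highest over all other tags by the bound alone, 30 had over 20% of their G11 UMIs in 1 cell. More than 5% of a cell's UMIs came from 1 gene in 6 of 124 G11 cells (4.84%), against 6 of 208 in G12 and 10 of 505 in G13. In one G11 cell 463 of 982 UMIs were Hdgfrp3, and in another 511 of 1176 were the unnamed gene Gm26861. One cell of 2842 UMIs held all 84 Cxcl9 UMIs of the tag, with 59 of H2-Aa and 27 of Cd74, genes of antigen-presenting cells, and no UMI of Stmn2, Cntn2, Tubb3 or Neurod1.

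Markers of other cell types had few UMIs in G11, most of them from oligodendrocyte, astrocyte and choroid plexus genes. Of 8 microglia markers 6 had a UMI, with 8 UMIs in 5 cells (41.7 CPM) and none of Cx3cr1 or P2ry12. Oligodendrocyte lineage markers had 386 CPM in G11 (6 of 7 genes), against 380 CPM in G12, 291 CPM in G13 and 306 CPM in all other tags. Of 5 tested over all other tags, 4 were at least 1.5-fold higher and 1 lower, 2 of the higher ones with an interval above 1, so some of these markers were higher in G11 along with the neuronal lists. Pdgfra, a receptor of oligodendrocyte progenitors, had 167 CPM in G11 and 81.5 CPM in all other tags, and the progenitor proteoglycan Cspg4 had 41.7 CPM in G11 (8 UMIs in 4 cells) and 4.78 CPM in all other tags. Astrocyte and Bergmann glia markers had 344 CPM in G11 (6 of 7 genes, none of Hopx), against 213 CPM in G12 and 475 CPM in G13. Choroid plexus markers, led by Ttr, had 381 CPM in G11 with none of Kl or Aqp1, against 265 CPM in G12 and 14806 CPM in G13, where 5 cells held 14349 of 14503 Ttr UMIs. Summed markers of the remaining types in G11 were 5.21 CPM for T cells, for fibroblasts and for GABAergic interneurons, 20.9 CPM for endothelial cells and for pericytes, 78.2 CPM for erythroid cells, 88.6 CPM for Purkinje cells and 151 CPM for unipolar brush cells. Only 2 of 5 T cell markers and 3 of 4 fibroblast markers were among the genes with values, so these 2 sums rest on fewer genes than listed. Among the defining markers at 0 were Gad2, Pax2, Slc32a1 and Slc6a5 of GABAergic interneurons, Flt1 of endothelial cells, Car8 of Purkinje cells and Lmx1a of unipolar brush cells. Kept cells with at least 3 markers of another type numbered 4 of 124 in G11, 5 of 208 in G12 and 12 of 505 in G13. Without these cells the neuron-like ratio over G13 was 1.10, and summed H2A was 7.57-fold that of G12 and 7.61-fold that of G13.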

How the data were processed

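Drop-seq libraries of P24-30 and P12 tumours were used as deposited. The P24-30 file holds natural log values that the authors deposited, ln(1 + 10000 × a gene's part of all UMIs in the cell). Of its 6195642 values above 0, 100% turned back into whole UMIs within 0.001, and each cell's total came from its scaling. The listed genes hold 99.77% of these UMIs. The P12 file holds whole-number counts per gene and barcode as the authors deposited them, which no label calls UMIs, and was used for levels of the whole library. The submitters' processing notes name CASAVA and mm10; for aligner, counting and annotation nothing is given in the sources used here.

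UMIs were summed over kept cells and scaled to CPM, with exact Poisson intervals and Clopper-Pearson intervals for ratios and shares (Python 3.11.15, numpy 2.4.6, scipy 1.17.1). A gene at 0 was set to 3 counts on that side, and a ratio so bounded never counted past 1. Calls needed a ratio past 1.5-fold in genes with at least 50 UMIs over both sides. There is 1 library per age and cells are not replicates, so no test was made. Calculations were checked on simulated counts. The 12 highest and 12 lowest genes over all other tags, and 6 and 6 over each of G12 and G13, were named by the interval bound nearest to 1, without mitochondrial, ribosomal protein, Gm and Rik genes. From each list the highest and lowest member and members whose role was needed were named. Some members are not reported here. Members, lists and rules were chosen with earlier results of these data known. Of the listed genes, 5 are not analysed here. No doublet caller was run, so doublets can remain. The P24-30 columns carry no barcode, so barcodes shared between libraries could not be counted.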

Additional observations from a re-analysis of the deposited data

How the results depend on the processing

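Of 865 values recomputed under other settings, 794 kept their direction and stayed inside the main interval (counts within 1.5 times), 71 moved and 0 reversed. Removing the filter on cells (124 values), leaving mitochondrial and ribosomal protein genes out of the total (122) and leaving G8, G9 and G10 out of the other tags (49) moved none. With cells weighing equally, the ratios over all other tags became 2.23 for the neuron-like markers, 0.335 for S phase, 0.179 for G2 and M phase and 0.449 for H2A, the median log2 ratio of the G2 and M phase list became -2.44, and the marker ratio over G13 became 1.02. With tags weighing equally, the ratios over all other tags became 2.42, 0.372, 0.208 and 0.721 in that order, and the median log2 ratios of the S phase and the G2 and M phase lists became -1.20 and -2.15. The marker ratio over G13 was 1.07 without the deepest 5% of cells and 1.10 without cells that carry 3 markers of another type. With H2A counted by the highest gene of each cell, the ratio was 0.381 over all other tags, 4.68 over G12 and 4.80 over G13. Counts of genes past 1.5-fold follow the number tested. With at least 100 UMIs per gene, 15 were higher and 24 lower than in G12, and 103 and 178 than in G13. With no minimum, 5524 were higher than in all other tags, 3442 higher and 2311 lower than in G12, and 4578 and 2156 than in G13. Where the interval also had to leave out 1, 1141 were higher and 612 lower than in all other tags, 72 were lower than in G12, and 194 were higher and 207 lower than in G13. Thinning to 1000 UMIs gave 77.9% of G11 cells with Stmn2, 32.7% cycling and 98.1% with H2A, and no thinning gave 78.2%, 47.6% and 100%, as deeper cells show more genes. The settings on the interval, on cells with markers of another type, on the 3 tags left out and on the highest H2A gene were chosen after the data had been seen.

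No paired analysis was possible because each age is 1 library, so there is no replicate to leave out. Intervals cover counting error in 191808 G11 UMIs and not the spread between animals. A gene with no G11 UMI can still be at up to 15.6 CPM. Genes named on under 20 UMIs have wide intervals, and deep cells weigh more in every sum.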
